A study of Mus musculus with 45 samples.

Results

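The nuclear-encoded subunits of oxidative phosphorylation are described here in 3 mouse tissues, liver, skeletal muscle and the epididymal fat pad, from 2 strains fed 2 diets. Members were found by a rule on gene symbols that uses no measured value, among probe sets annotated to exactly 1 gene: the Nduf subunits of the a, b, c, s and v series, Sdha to Sdhd, the Uqcr genes with Cyc1, the numbered Cox4 to Cox8 subunits and the Atp5 genes. This gave 69 genes of 8251, measured by 95 probe sets of 10833. Complex I contributed 28 genes, complex II 4, complex III 8, complex IV 15 and complex V 14. For each gene and tissue the probe set with the highest mean was used, and 19 members had more than 1. Another 9 probe sets that carried a subunit symbol beside another gene symbol were left out, among them those of Cox7c, Ndufs5, Ndufs6, Ndufa11 and Ndufb4. Cox4i2, Ndufa4, Ndufa4l2 and the subunits encoded by mitochondrial DNA were not analysed here.

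The series holds 45 one-colour Affymetrix arrays in 12 groups, that cross tissue, strain and food. The mice were C57Bl/6, called B6 here, or 129S6/SvEvTac, called 129S6. Both strains were kept on low-fat or high-fat food, and tissues were taken at 6 months of age. Liver had 4 arrays in each of the 4 groups, muscle had 3 arrays of low-fat B6 and 4 of each other group, and fat had 4 arrays of each B6 group and 3 of each 129S6 group. RNA of 2 to 3 mice was pooled for each array, so the tests below measure the spread between pools. The design text gives the calories of 1 diet as 21% fat, 22% protein and 57% carbohydrate, and does not name it as low-fat or high-fat; the composition of the other was not given in the sources used here.

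Oxidative phosphorylation runs in the inner mitochondrial membrane. Complexes I and II pass electrons from NADH and succinate to ubiquinone, complex III passes them on to cytochrome c, complex IV reduces oxygen, and complex V, the ATP synthase, uses the proton gradient built by complexes I, III and IV to make ATP. Skeletal muscle and liver are rich in mitochondria, white fat holds fewer, and several complex IV subunits exist as a heart and muscle isoform and a liver or widely expressed isoform. The factors NRF1, GABPA, YY1 and the estrogen-related receptors are known regulators of nuclear genes for these complexes.

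Promoter sequence was available for 55 of the 69 members in the RefSeq table, each as the 300 bases from 250 before to 50 after a gene's start (mouse build GRCm38.p6). It is shown for 6 members that the results turn on: Sdha and Uqcr11, from complexes in which most members were lower on high-fat food in B6 liver, and the complex IV genes Cox6a1, Cox7a1, Cox7a2 and Cox8b, whose levels or diet differences varied by tissue. Each line gives 200 bases upstream of the start, 5′ to 3′ on the gene's strand, with capitals where a searched motif matched on either strand.

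Sdha: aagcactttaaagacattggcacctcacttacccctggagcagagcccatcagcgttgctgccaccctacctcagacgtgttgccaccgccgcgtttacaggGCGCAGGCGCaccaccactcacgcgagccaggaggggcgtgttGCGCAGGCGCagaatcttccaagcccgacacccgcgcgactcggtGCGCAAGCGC

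Uqcr11: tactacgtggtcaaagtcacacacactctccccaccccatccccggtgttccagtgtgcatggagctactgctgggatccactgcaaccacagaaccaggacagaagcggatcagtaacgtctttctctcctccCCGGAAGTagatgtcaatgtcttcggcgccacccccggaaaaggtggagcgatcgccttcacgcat

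Cox6a1: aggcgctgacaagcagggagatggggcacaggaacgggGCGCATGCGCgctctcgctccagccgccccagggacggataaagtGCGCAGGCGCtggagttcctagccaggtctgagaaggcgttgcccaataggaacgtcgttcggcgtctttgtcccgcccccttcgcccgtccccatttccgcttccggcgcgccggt

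Cox7a1: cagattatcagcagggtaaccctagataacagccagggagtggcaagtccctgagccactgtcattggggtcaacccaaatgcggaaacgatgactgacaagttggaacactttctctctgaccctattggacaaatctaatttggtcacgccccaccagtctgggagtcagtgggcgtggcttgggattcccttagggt

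Cox7a2: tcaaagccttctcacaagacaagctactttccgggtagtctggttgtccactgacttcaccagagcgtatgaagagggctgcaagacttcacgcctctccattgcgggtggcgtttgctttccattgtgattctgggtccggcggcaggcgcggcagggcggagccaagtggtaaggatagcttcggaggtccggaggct

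Cox8b: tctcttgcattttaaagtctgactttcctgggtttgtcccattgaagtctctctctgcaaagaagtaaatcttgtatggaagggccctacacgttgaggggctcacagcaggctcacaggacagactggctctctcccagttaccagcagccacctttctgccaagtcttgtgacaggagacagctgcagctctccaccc

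The stretches lie at chr13:74350241-74350440 (Sdha, minus strand), chr10:80406822-80407021 (Uqcr11, minus), chr5:115348959-115349158 (Cox6a1, minus), chr7:30183971-30184170 (Cox7a1, plus), chr9:79759854-79760053 (Cox7a2, minus) and chr7:140900447-140900646 (Cox8b, minus). The NRF1 motif was searched as a pair of GCGC blocks with any 2 bases between them, and is the same on both strands. It was in the windows of 12 members (21.8%) against 7% of the 27025 genes with a window in the RefSeq table. Shares of all genes in this paragraph are over those 27025, not over the 8251 genes of the arrays. In the printed bases Sdha had 3 matches to the NRF1 motif and Cox6a1 2. The YY1 letters AAGATGGC were in 8 members (14.5%, against 3.19% of all genes). ACTTCCGG of GABPA was in 4 members (7.27%, against 4.31%), one of them Uqcr11, where it lies on the other strand. TNAAGGTCA of the estrogen-related receptors was in 1 member (1.82%, against 1.43%). At least 1 of the 4 was in 24 members (43.6%) and in 14.6% of all genes; by complex it was in 10 of 25 members of I, 2 of 3 of II, 3 of 4 of III, 2 of 11 of IV and 7 of 12 of V. Cox7a1, Cox7a2 and Cox8b had none of these letters in the bases shown, which says nothing of the factors themselves.

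All values are deposited log2 signals, so a difference of 1 is a 2-fold change. A gene is said to have passed when its adjusted p (limma, Benjamini-Hochberg over all 8251 genes of a tissue) was under 0.05. The arrays of a tissue differed in spread: the standard deviation over all probe sets of an array (array SD, in log2) was 1.81 to 1.98 in liver and 1.57 to 1.88 in muscle. Most subunits are bright, 54 of 69 lying among the brightest 1 in 3 genes in liver and 61 in muscle, and differences are therefore given also with array SD as a covariate. In whole tissue, fewer cells of a type and less RNA per cell cannot be told apart.

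In B6 liver, most subunits of complexes I, II, III and V, and a smaller share of those of complex IV, were lower on the high-fat than on the low-fat diet. Of the 69 members 44 fell and 1 rose, where 12.0% of all genes fell and 6.21% rose. The fall took in 18 of 28 complex I members, 4 of 4 of complex II, 7 of 8 of complex III, 5 of 15 of complex IV and 10 of 14 of complex V. The median difference (high-fat minus low-fat, log2) was -0.52 over members and 0.02 over all genes, and was -0.11 over the non-members among the brightest 1 in 3 genes. It was -0.68 in complex II and -0.73 in complex III but -0.21 in complex IV. In the fit with the covariate 19 members were lower, 17 of them among the 44, where 6.54% of all genes were lower, and the median was -0.30. The 2 groups did not overlap, with every high-fat array below every low-fat array, in 50 members, against 16.0% of all genes.

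**Figure D1:**
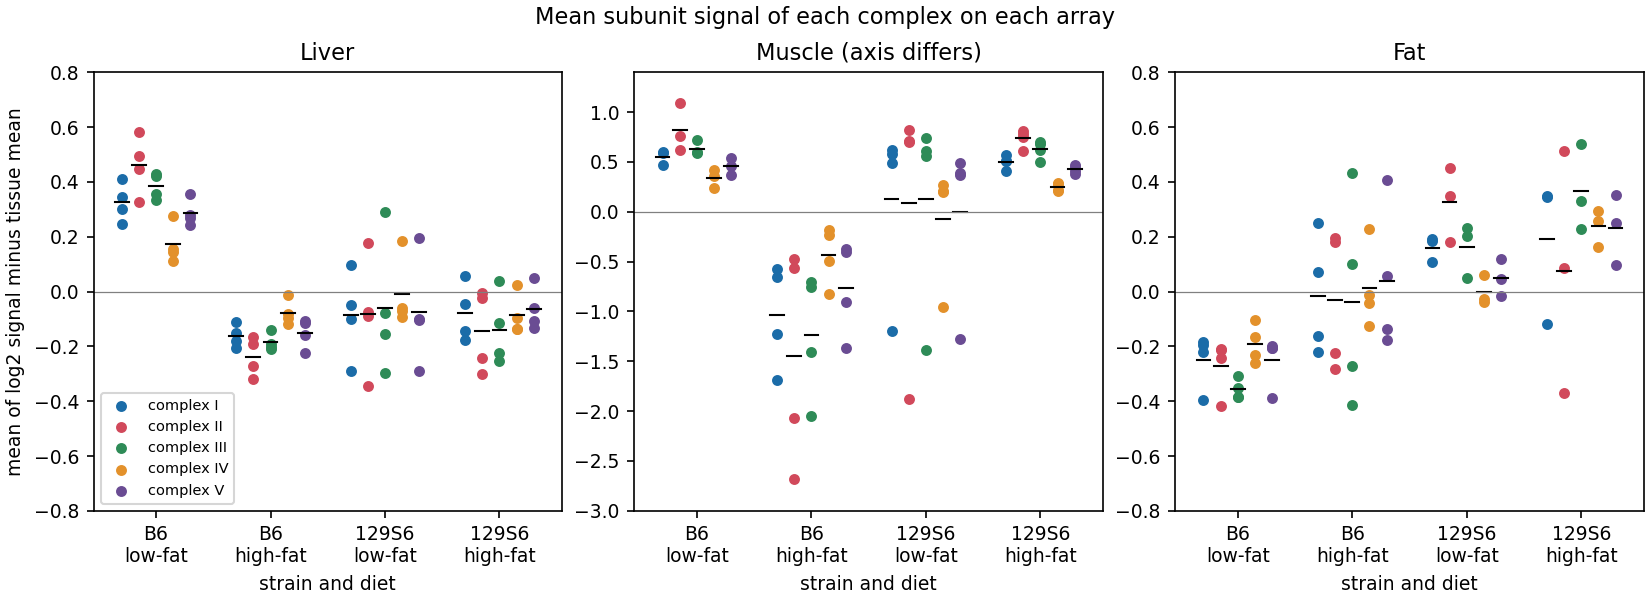
Mean log2 signal of the members of each complex (I to V) on each array, minus the mean of that tissue, in liver, muscle and fat, with the arrays set out by strain and diet, coloured by complex, and a bar at each group's mean. The muscle panel has a wider vertical axis. In liver the 4 low-fat B6 arrays lie above the other groups in complexes I, II, III and V, and in muscle the 4 high-fat B6 arrays and 1 low-fat 129S6 array lie below the rest.

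The mean of the 28 complex I members in B6 liver, taken relative to the tissue mean, was 0.33 ± 0.07 (SD, n = 4) on the low-fat diet and -0.16 ± 0.04 (SD, n = 4) on the high-fat diet. For complex II the means were 0.46 ± 0.11 and -0.24 ± 0.07, for complex III 0.38 ± 0.05 and -0.18 ± 0.03, for complex IV 0.17 ± 0.07 and -0.08 ± 0.04 and for complex V 0.29 ± 0.05 and -0.15 ± 0.05 (SD, n = 4 each). No array of 1 diet reached the range of the other in these 5 means.

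Among complex I accessory subunits, Ndufb11, in the membrane arm, had signals of 9.87, 9.84, 9.77 and 9.97 on the low-fat arrays and 8.98, 9.12, 8.88 and 8.77 on the high-fat arrays. All high-fat arrays lay below all low-fat ones, and the gene was 1.90-fold lower (-0.93 ± 0.12, SE; adjusted p = 0.00012). Ndufa3 (-0.89 ± 0.13, adjusted p = 0.000349) and Ndufv3, of the NADH-oxidising module (-0.88 ± 0.13, adjusted p = 0.000337), fell by like amounts. Ndufb11 remained lower with array SD as a covariate (-0.60, adjusted p = 0.0084). Of the 4 core subunits measured, 3 fell, with a median over the 4 of -0.51, and the 24 accessory subunits had a median of -0.53 with 15 lower.

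Complex II, the succinate dehydrogenase that also serves in the citric acid cycle, fell in all of its subunits. Sdhc, a membrane anchor, had signals of 10.59, 10.52, 10.45 and 10.70 on low-fat and 9.60, 9.62, 9.53 and 9.82 on high-fat food, and Sdhb, the iron-sulphur subunit, 10.58, 10.61, 10.56 and 10.66 against 9.92, 9.97, 9.90 and 9.71. The diets did not overlap in either gene. Sdhc was 1.90-fold lower (-0.93 ± 0.09, SE; adjusted p = 1.18e-05) and Sdhb changed by -0.73 ± 0.08 (adjusted p = 2.77e-05). Both passed with array SD as a covariate, at -0.80 and -0.64. Sdha, the flavoprotein that oxidises succinate (-0.64 ± 0.20, adjusted p = 0.0345), and Sdhd, the other anchor (-0.51 ± 0.14, adjusted p = 0.0200), passed without it, and were at -0.13 and -0.22 with it, where neither passed.

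In complex III, Uqcr11, a small subunit, read 10.24, 10.31, 10.48 and 10.40 on low-fat and 9.47, 9.59, 9.61 and 9.20 on high-fat food. It was 1.85-fold lower (-0.89 ± 0.10, SE; adjusted p = 4.27e-05) with no overlap, and -0.81 with array SD as a covariate. Uqcrc1, a core protein, read 10.33, 10.58, 10.44 and 10.49 against 9.69, 10.01, 9.76 and 9.62, a difference of -0.69 ± 0.12 (adjusted p = 0.0010). Uqcrb (-0.94 ± 0.25, adjusted p = 0.0146) and Uqcr10 (-0.78 ± 0.15, adjusted p = 0.0020) fell too, and did not pass with array SD as a covariate. The other core protein, Uqcrc2, was at 0.38 ± 0.27 (adjusted p = 0.3504). Cyc1, the cytochrome c1 subunit, fell by its brighter probe set (-0.27 ± 0.07, adjusted p = 0.0154), while its other probe set rose (0.41 ± 0.13, adjusted p = 0.0366), so its direction depends on the probe set.

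Complex IV was the exception in share. Cox7a2, the widely expressed isoform of subunit 7a, read 10.72, 10.48, 10.33 and 10.61 on low-fat and 9.51, 9.64, 9.67 and 9.68 on high-fat food. Its diets did not overlap (-0.91 ± 0.18, SE; adjusted p = 0.0025), and with array SD as a covariate it was at -0.57 (adjusted p = 0.1075). Cox7a2l, a supercomplex assembly factor of the same family (-0.52 ± 0.11, adjusted p = 0.0051), Cox6a1, the liver isoform of subunit 6a (-0.52 ± 0.15, adjusted p = 0.0223), and Cox5b (-0.50, adjusted p = 0.0120) fell as well. Cox6b2, known from testis, fell by 1 probe set (-0.69 ± 0.23, adjusted p = 0.0438), and its other 2 were at 0.06 and 0.02. None of the remaining 10 passed. Among them Cox4i1 was at -0.07, Cox6b1 at 0.06, Cox8a at -0.12, Cox8b at -0.21, and the muscle isoforms Cox6a2 and Cox7a1 at 0.25 and 0.15. Cox8b was lower by the test once array SD was a covariate (-0.45, adjusted p = 0.0354).

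In the ATP synthase, Atp5l, subunit g of the membrane part, read 11.01, 11.10, 11.26 and 11.23 on low-fat and 10.09, 10.35, 10.36 and 10.09 on high-fat food. It was 1.90-fold lower without overlap (-0.92 ± 0.13, SE; adjusted p = 0.000233), although its dimmer second probe set was at -0.25 (adjusted p = 0.1131). Atp5o, the stalk subunit OSCP (-0.67 ± 0.08, adjusted p = 7.87e-05), and Atp5k, subunit e (-0.64 ± 0.16, adjusted p = 0.0121), fell. The 1 member that rose in B6 liver was Atp5g1, 1 of the genes for subunit c: it read 7.74, 7.60, 7.55 and 7.35 against 8.09, 7.92, 8.12 and 8.15 (0.51 ± 0.10, SE; adjusted p = 0.0034), and its second probe set was at -0.07 (adjusted p = 0.6904). For 13 of the 45 genes that passed there were other probe sets, 19 in all; 4 of these passed in the same direction and 10 had the same sign.

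**Figure D2:**
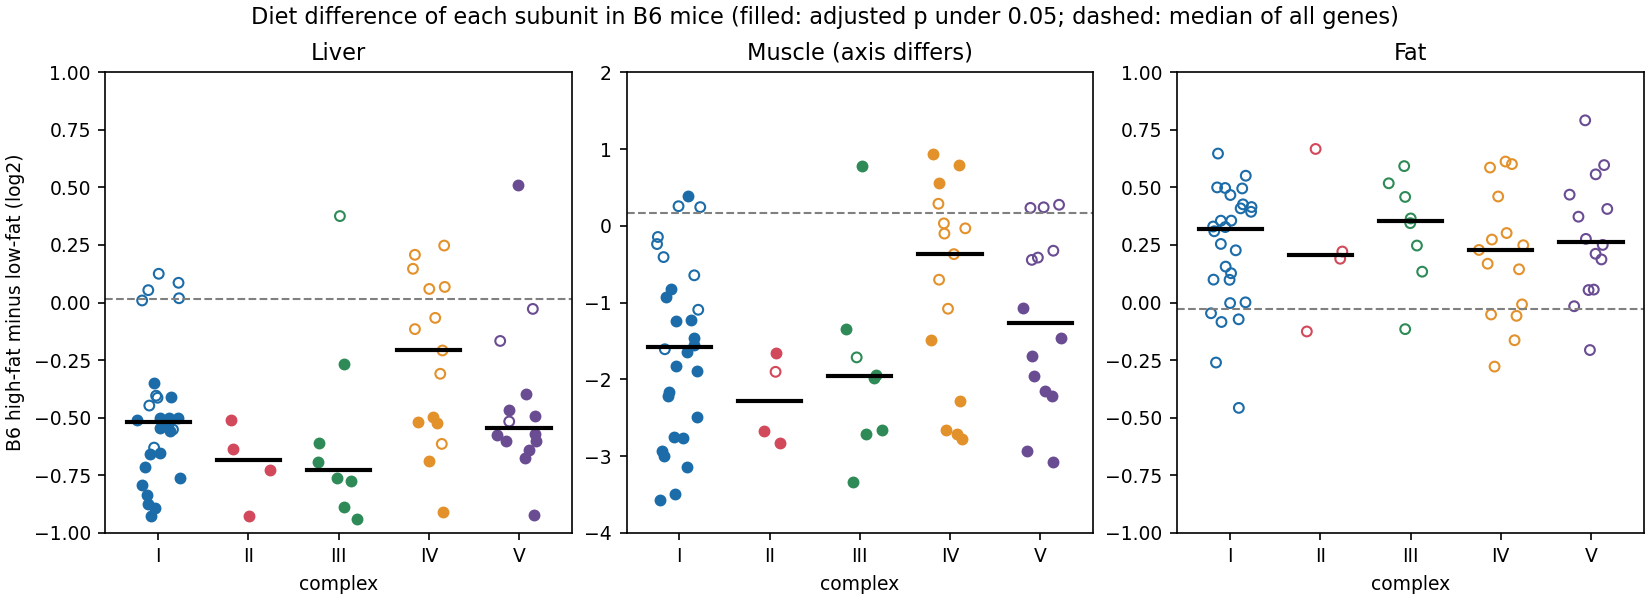
Difference between the high-fat and the low-fat diet in B6 mice (log2, high-fat minus low-fat) for each subunit, by complex, in liver, muscle and fat. Filled points passed the test (adjusted p under 0.05), black bars are the medians of each complex and the dashed line is the median of all genes. Complex IV has the median nearest to 0 in liver (-0.21) and in muscle (-0.37), and no point is filled in fat.

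Some measures of the arrays moved with diet in B6 liver, and their part in these differences was not tested. Array SD was 1.91 to 1.98 on low-fat and 1.84 to 1.89 on high-fat arrays, and the difference between the 3′ and 5′ Gapdh control probe sets was 0.82 to 1.69 and 0.22 to 0.35. The mean of 6 of 7 hepatocyte markers was 11.6 to 11.8 on low-fat and 11.3 to 11.6 on high-fat arrays, and that of 2 of 5 red cell markers 10.5 to 11.2 and 9.68 to 9.99. The mean of 5 endothelial markers ran the other way, at 6.24 to 6.39 on low-fat and 6.47 to 6.54 on high-fat arrays. The 4 low-fat B6 liver arrays also form a run of array numbers of their own, so diet and that run cannot be told apart in B6 liver.

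**Figure D3:**
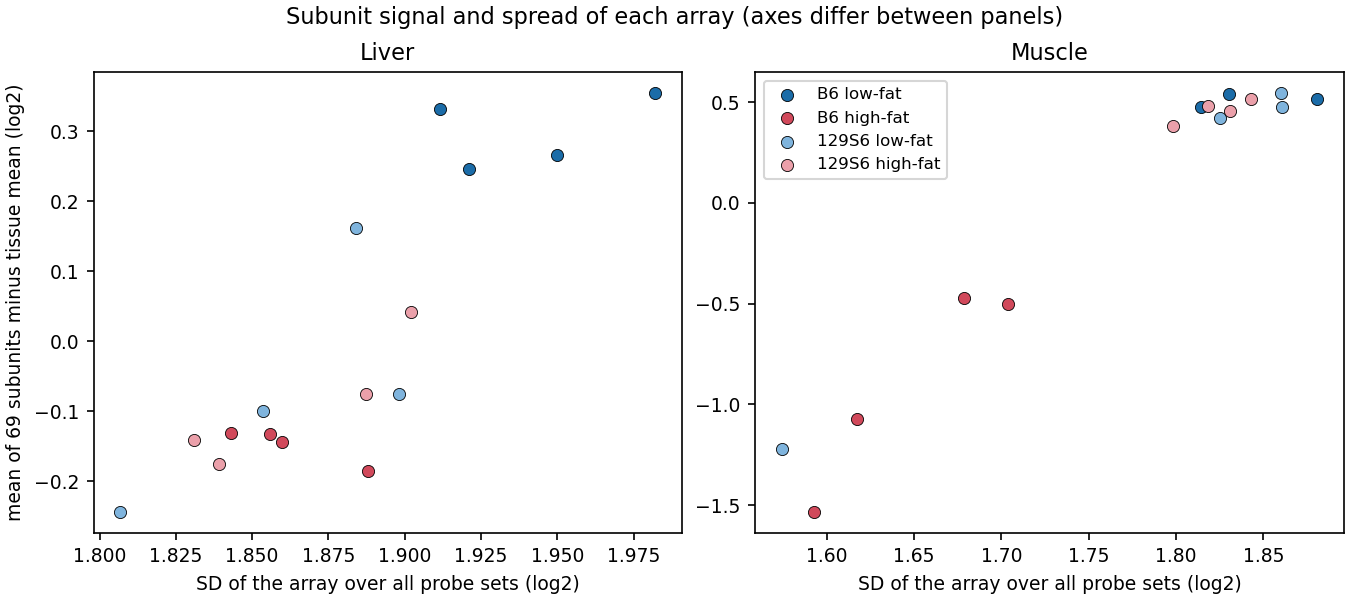
Mean of the 69 subunits on each liver and muscle array (log2, minus the mean of that tissue) against the array's SD over all probe sets (log2), coloured by group. In liver the 4 low-fat B6 arrays have the highest SDs and the highest means. In muscle the 4 high-fat B6 arrays and 1 low-fat 129S6 array lie apart at SDs of 1.57 to 1.70 with the lowest means.

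In 129S6 liver no member passed for diet by limma (0.0606% of all genes rose and 0.170% fell), and 3 had an unadjusted p under 0.05 (6.39% of all genes had one). The median difference was 0.00, with a range of -0.44 to 0.41. Ndufb8 was at 0.41 (adjusted p = 0.5637), Sdhb at 0.21 (adjusted p = 0.6491) and Ndufa10 at 0.20 (adjusted p = 0.7664).

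The difference between the strains in the effect of diet was tested directly. In liver it too includes the low-fat B6 arrays, so it cannot be told apart from their own run of array numbers. The high-fat minus low-fat difference in liver was more negative in B6 than in 129S6 for 25 members, where 4.63% of all genes passed in that direction: 14 of complex I, 2 of II, 3 of III, none of IV and 6 of V. Ndufb8, a membrane arm subunit, read 9.63, 9.76, 9.54 and 9.78 on low-fat and 8.94, 8.97, 8.98 and 8.95 on high-fat food in B6. In 129S6 it read 9.30, 9.13, 8.45 and 9.17 on low-fat and 9.40, 9.48, 9.50 and 9.29 on high-fat food. In B6 the high-fat arrays lay below all low-fat ones, while in 129S6 the diets overlapped and most high-fat arrays were the higher. The diet effects of the strains differed by -1.12 ± 0.19 (SE; adjusted p = 0.0028).

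Uqcr11 (-1.01 ± 0.15, adjusted p = 0.0012), Ndufb11 (-0.99 ± 0.17, adjusted p = 0.0029) and Ndufv3 (-0.97, adjusted p = 0.0058) were next. Sdhc and Sdhb both differed by -0.94 (adjusted p = 0.000605 and 0.000282), Uqcrc1 by -0.84 (adjusted p = 0.0078) and Uqcrq by -0.64 (adjusted p = 0.0029). In complex V these were Atp5mpl (-0.85), Atp5l (-0.84, both adjusted p = 0.0150; its second probe set -0.09) and Atp5k (-0.82, adjusted p = 0.0446). With array SD as a covariate 18 passed in this direction (4.70% of all genes), 15 of them among the 25, and 1 in the other, Uqcrc2 (1.46, against 5.26% of all genes). Without array 11 of low-fat 129S6 liver, whose Gapdh difference was 3.26, 42 members passed. For 8 of the 25 genes there were 13 other probe sets, of which 1 passed in the same direction and 8 had the same sign.

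The strains were then compared on each diet. On low-fat food, 38 members were higher in B6 than in 129S6 liver and 1 was lower, against 10.0% and 3.83% of all genes, with a median of 0.46 (B6 minus 129S6) over members and -0.02 over all genes. This comparison uses the same 4 low-fat B6 arrays as the diet comparison, so strain and their run of array numbers cannot be told apart. Those higher were 18 of complex I, 3 of II, 6 of III, 4 of IV and 7 of V. The 129S6 low-fat arrays read 9.60, 9.47, 9.32 and 9.52 for Uqcr11, all below the B6 low-fat arrays given above (0.88 ± 0.10, SE; adjusted p = 2.96e-05). Sdhc was higher in B6 by 0.72 ± 0.09 (adjusted p = 5.01e-05), Sdhb by 0.47 ± 0.08 (adjusted p = 0.000982) and Cox7a2 by 0.93 ± 0.18 (adjusted p = 0.0023). Cyc1 was higher by its brighter probe set (0.24), while its other probe set was at -0.34 (adjusted p = 0.0893). For 11 genes that passed there were 17 other probe sets, of which 2 passed in the same direction and 11 had the same sign.

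Ndufv3 (0.81), Ndufa3 (0.77), Ndufb8 (0.66), Uqcr10 (0.70), Uqcrq (0.47), Atp5e, the epsilon subunit (0.75), Atp5mpl (0.72) and Atp5l (0.58; its second probe set 0.07) were also higher in B6. The 1 lower member was Cox6a2, the muscle isoform, with 6.54, 6.49, 6.66 and 6.69 in B6 and 6.82, 7.01, 7.27 and 6.88 in 129S6 (-0.40 ± 0.12, SE; adjusted p = 0.0436). The mean of the 8 skeletal muscle markers on these liver arrays was 5.72 to 6.09 in B6 and 6.09 to 6.39 in 129S6, with 129S6 array 11 the highest in it and in Cox6a2, and its part in this difference was not tested. Once array SD was in the fit 8 members were higher (2.78% of all genes), 7 of them among the 38, the median was 0.20, and Cox6a2 was at -0.51 (adjusted p = 0.0955). Without low-fat B6 array 4, 23 members passed, and without low-fat 129S6 array 6, 25.

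On high-fat food few subunits differed between the strains in liver. Sdhb (-0.47 ± 0.08, adjusted p = 0.0018), Uqcrc1 (-0.44 ± 0.12, adjusted p = 0.0434) and Cox8a (-0.38 ± 0.09, adjusted p = 0.0210) were lower in B6, against 2.13% of all genes lower and 3.03% higher. Sdhb read 9.92, 9.97, 9.90 and 9.71 in B6 and 10.29, 10.46, 10.36 and 10.26 in 129S6. Cox8a is dim, with 3.22, 3.24, 3.41 and 3.24 against 3.79, 3.61, 3.60 and 3.62. Neither gene overlapped between the strains. The 3 genes became 1 without high-fat B6 array 13 or 16 or high-fat 129S6 array 7, 5 without low-fat 129S6 array 6 and 9 without array 11. With array SD as a covariate 9 were lower (4.07% of all genes) and 1, Cox6c (0.88), was higher (6.16%). With the runs of array numbers as a term none passed.

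In B6 muscle, high-fat arrays again had lower subunit signals than low-fat arrays, by larger amounts, but nearly all of these calls were lost once array SD entered the fit. Without the covariate 41 members fell and 5 rose, where 12.0% of all genes fell and 14.8% rose. The median was -1.56 over members and 0.16 over all genes, and -0.06 over non-members among the brightest 1 in 3. With it 3 members were lower (0.376% of all genes) and the median was -0.09. The 41 that fell were all among the 61 brightest-class members, and of the other 8, none fell and 2 rose. High-fat arrays had SDs of 1.59 to 1.70 and low-fat arrays 1.81 to 1.88, so the ranges of the 2 diets did not overlap in array SD.

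By complex, 19 of 28 members of I, 3 of 4 of II, 6 of 8 of III, 5 of 15 of IV and 8 of 14 of V fell, with medians of -1.58, -2.29, -1.96, -0.37 and -1.27. The mean of the 69 members relative to the tissue mean was 0.51 ± 0.03 (SD, n = 3) on low-fat and -0.90 ± 0.51 (SD, n = 4) on high-fat arrays. In 129S6 it was 0.05 ± 0.85 on low-fat and 0.46 ± 0.06 on high-fat arrays (SD, n = 4 each). Without low-fat B6 array 13, 14 members passed, without array 14, 23, and without high-fat array 7, 29. With high-fat arrays 6 and 7 both left out, a choice made after seeing the data, 11 passed.

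**Figure D4:**
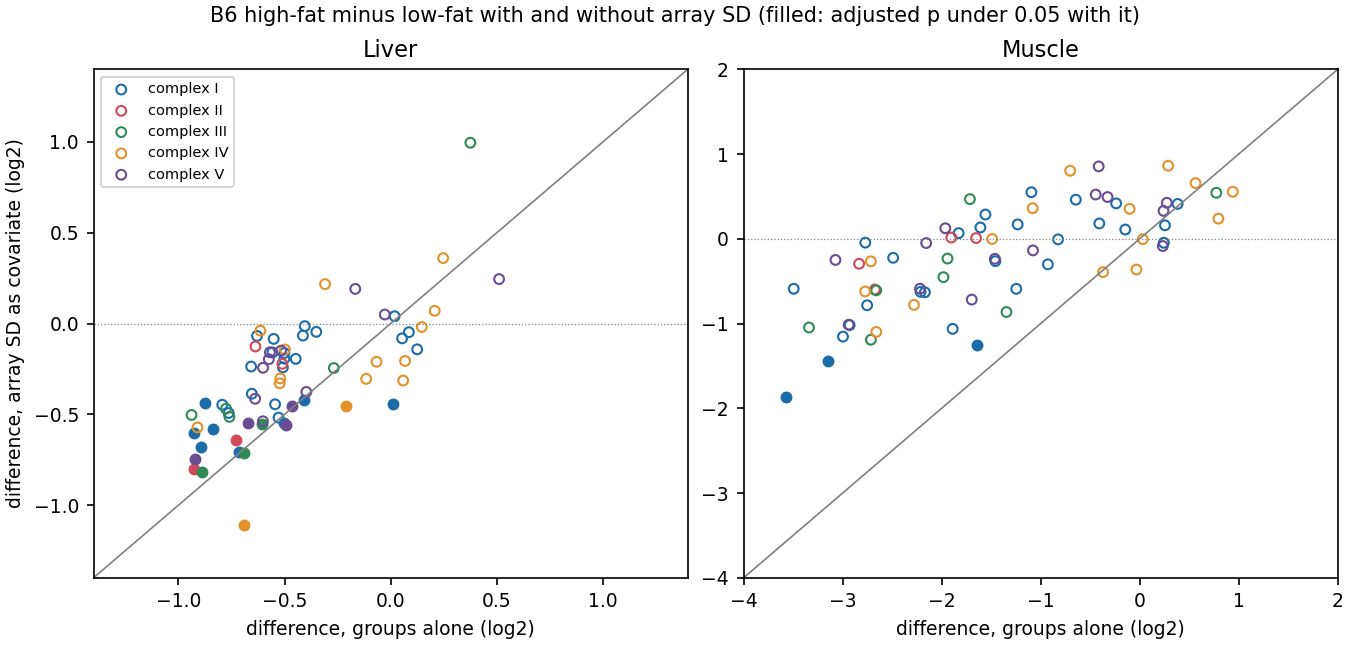
Diet difference in B6 (high-fat minus low-fat, log2) of each subunit in liver and muscle from the fit with groups alone (horizontal axis) and with array SD as a covariate (vertical axis), with a line where both are equal. Filled points passed with the covariate, 19 in liver and 3 in muscle. The median moved from -0.52 to -0.30 in liver and from -1.56 to -0.09 in muscle.

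Ndufb6, an accessory subunit of the complex I membrane arm, read 11.38, 11.37 and 11.01 on the low-fat B6 arrays and 7.85, 8.04, 7.38 and 7.46 on the high-fat ones. The diets did not overlap (-3.57 ± 0.52, SE; adjusted p = 0.0027), and Ndufb6 remained lower with array SD as a covariate (-1.87 ± 0.33, adjusted p = 0.0197). Its second probe set, with a mean signal of 3.01, was at -0.06. Ndufb10, of the same arm, changed by -3.14 ± 0.49 (adjusted p = 0.0031; second probe set 0.00) and by -1.44 ± 0.19 with the covariate (adjusted p = 0.0061). Ndufa6 was the other gene to pass with it (-1.26 ± 0.26). Ndufs3, a core subunit of the peripheral arm, fell by 3.49 ± 0.85 (adjusted p = 0.0155) and did not pass with the covariate.

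Sdhb read 11.17, 10.99 and 11.03 on low-fat and 9.07, 8.11, 7.34 and 9.05 on high-fat arrays (-2.67 ± 0.60, SE; adjusted p = 0.0122). Sdhc (-2.83 ± 0.72, adjusted p = 0.0186) and Sdhd (-1.65 ± 0.53, adjusted p = 0.0371) fell, while Sdha was at -1.90 ± 0.71 (adjusted p = 0.0570). Sdhd was at 0.01, the reverse sign, with array SD as a covariate. The core protein pair of complex III went opposite ways. Uqcrc1 read 11.37, 11.05 and 11.24 against 8.06, 7.90, 7.57 and 7.98 (-3.34 ± 0.68, adjusted p = 0.0092). Uqcrc2 read 10.53, 11.02 and 11.44 against 11.87, 11.75, 11.49 and 11.97 (0.77 ± 0.20, adjusted p = 0.0186). Neither gene overlapped between diets. The Uqcrc2 probe set is of the class that can share sequence with a gene family. Uqcr11 (-2.71 ± 0.47, adjusted p = 0.0058) and Uqcrq (-2.66 ± 0.59, adjusted p = 0.0121) fell, and Cyc1 was at -1.71 ± 0.66 (adjusted p = 0.0651).

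The heart and muscle isoforms of complex IV were among those that fell. Cox6a2 read 13.15, 13.37 and 13.27 on low-fat and 11.17, 10.30, 9.65 and 10.85 on high-fat arrays (-2.77 ± 0.63, SE; adjusted p = 0.0130). Cox7a1 read 9.22, 9.57 and 9.63 against 7.13, 6.96, 5.90 and 7.27 (-2.66 ± 0.49, adjusted p = 0.0066), and Cox8b 11.59, 11.80 and 11.73 against 9.53, 9.55, 9.01 and 9.61 (-2.28 ± 0.46, adjusted p = 0.0088). The diets overlapped in none of the 3 isoforms, and the second Cox8b probe set fell by 3.05 (adjusted p = 0.0152). Cox7a2, the counterpart of Cox7a1, changed by -2.71 ± 0.73 (adjusted p = 0.0216) and Cox5b by -1.49 (adjusted p = 0.0328). Cox6a1 was at -0.70 (adjusted p = 0.2439), Cox7a2l at -1.08 (adjusted p = 0.0820), Cox4i1 at 0.29 (adjusted p = 0.3329) and Cox8a at -0.03, none of which passed.

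Besides Uqcrc2, the members that rose were Cox6b1, the widely expressed isoform of subunit 6b (0.79 ± 0.20, adjusted p = 0.0165), Cox5a (0.56 ± 0.12, adjusted p = 0.0117), Ndufc2 (0.38 ± 0.12, adjusted p = 0.0367) and Cox6b2 (0.94 ± 0.33, adjusted p = 0.0470). Cox6b1 read 6.98, 7.26 and 7.40 on low-fat and 7.61, 8.14, 8.40 and 7.90 on high-fat arrays, and Cox5a 4.71, 4.64 and 4.44 against 5.29, 5.04, 5.38 and 4.93. Both were without overlap, and the second Cox5a probe set rose too (0.58, adjusted p = 0.0129). Of the other 2 probe sets of Cox6b2, 1 fell (-0.58, adjusted p = 0.0350) and 1 was at -0.04. None of the 5 passed with array SD as a covariate.

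In complex V, Atp5l read 11.87, 11.99 and 11.80 on low-fat and 9.37, 8.37, 7.72 and 9.81 on high-fat arrays (-3.07 ± 0.80, SE; adjusted p = 0.0200), while its dimmer second probe set was at -0.03. Atp5e fell by 2.94 ± 0.56 (adjusted p = 0.0072) and Atp5mpl was lower as well (-2.22, adjusted p = 0.0117). In muscle, 18 other probe sets were available for 12 of the 46 genes that passed; of the 18, 4 passed in the same direction and 9 had the same sign. Of the members lower on high-fat food, 36 were so in both liver and muscle, which is 81.8% of the 44 in liver and 87.8% of the 41 in muscle. Over all genes, 389 were lower in both, which is 39.3% of the 990 lower in liver and 39.1% of the 994 lower in muscle. The bases differ, with 44 and 41 of 69 members lower against 12.0% of all genes in each tissue. The shares of members and of all genes therefore do not compare directly. The tissues have separate arrays.

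Several markers moved with diet in B6 muscle, and their part in the result was not tested. The mean of all 8 skeletal muscle markers was 10.2 to 11.1 on the high-fat B6 arrays, 10.0 on low-fat 129S6 array 9 and 11.5 to 11.7 on all other muscle arrays. Red cell markers were at 7.90 to 8.54 on high-fat B6 arrays, 7.84 on that 129S6 array and 9.67 to 11.8 elsewhere. Endothelial markers ran the other way, at 7.04 to 7.20, 7.08 and 6.54 to 6.94. So did 6 of 7 hepatocyte markers, at 5.80 to 6.08 on high-fat and 5.71 to 5.72 on low-fat B6 arrays. Brown adipocyte markers (6 of 7) were at 5.12 to 5.34 and 4.85 to 5.01, and epididymis markers (4 of 5) at 5.86 to 6.12 and 5.48 to 5.56. The mean of 7 of 8 slow fibre markers was 9.72 to 9.91 on low-fat and 7.97 to 9.38 on high-fat B6 arrays, that of 7 macrophage markers 6.94 to 7.54 and 6.46 to 6.56, and that of 5 of 7 adipocyte markers 8.06 to 8.43 and 7.35 to 7.97. None of these ranges overlapped between the diets, and array 9 was at 7.65 for the slow fibre list. The Gapdh 3′ minus 5′ difference was 0.35 to 0.81 on low-fat and 1.19 to 3.36 on high-fat B6 arrays. The 129S6 array 9 had an array SD of 1.57, near the 4 high-fat B6 arrays, and its subunit means were as low as theirs.

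In 129S6 muscle no member passed for diet by limma, no gene passed at all (0% of all genes), and no member had an unadjusted p under 0.05. The median difference was 0.40, and 0.02 without low-fat array 9; 1.83% of all genes had an unadjusted p under 0.05. The low-fat 129S6 arrays of Sdhb read 8.48, 11.46, 11.49 and 11.19 and the high-fat arrays 11.07, 11.06, 11.20 and 11.29, so that 1 low-fat array, array 9, lay far below the other 7. The members with the smallest unadjusted p were Cox6c (0.40), Atp5k (0.71) and Atp5md (0.42), all at an adjusted p of 0.9925. Between the strains on low-fat food no member passed (0.242% of all genes were higher and 0.0364% lower), 5 had an unadjusted p under 0.05 (6.1% of all genes) and the median was 0.50, or 0.02 without 129S6 array 9. Cox6c was at 1.01 (adjusted p = 0.0891). Without low-fat 129S6 array 11, 1 member passed.

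On high-fat food, 42 members were lower and 3 higher in B6 than in 129S6 muscle, against 13.7% and 15.5% of all genes, with a median of -1.37 (all genes 0.14). The same 4 high-fat B6 arrays enter this and the diet comparison. All 4 complex II genes, 7 of 8 of III, 19 of 28 of I, 5 of 15 of IV and 7 of 14 of V were lower. Ndufs3 (-3.75, adjusted p = 0.0064), Ndufb6 (-3.34, adjusted p = 0.0015), Uqcrc1 (-3.32, adjusted p = 0.0044) and Atp5l (-3.12, adjusted p = 0.0106) had the largest differences. The dim second probe sets of Ndufb6 (0.34, adjusted p = 0.0255) and Ndufb10 (0.27, adjusted p = 0.0387) passed as higher in B6. That of Atp5l was at 0.28 (adjusted p = 0.0763). Of 10 other probe sets for 10 genes that passed, 3 passed in the same direction and 5 had the same sign. Sdhb was at -2.76, Uqcr11 at -2.96, Cox6a2 at -2.24, Cox7a1 at -2.36 and Cox8b at -2.19. Uqcrc2 (1.18 ± 0.18, adjusted p = 0.0019), Cox6b1 (0.61, adjusted p = 0.0254) and Cox5a (0.35, adjusted p = 0.0351) were higher. With array SD as a covariate 5 were lower (0.788% of all genes), namely Ndufb6 (-1.81), Uqcr11 (-1.59), Ndufb10 (-1.30), Atp5e (-1.25) and Ndufb8 (-1.11), and Cox6c was higher (0.92, against 0.824% of all genes). Sdhd, lower without the covariate, was at 0.13 with it.

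The effect of diet in muscle differed between the strains in 22 members, all more negative in B6 (2.53% of all genes), and in none with array SD as a covariate (0.0242%). Ndufb6 (-4.19 ± 0.71, adjusted p = 0.0275), Uqcrc1 (-4.08 ± 0.93, adjusted p = 0.0397), Cox6a2 (-3.53 ± 0.86, adjusted p = 0.0441), Cox7a1 (-3.40 ± 0.67, adjusted p = 0.0304), Sdhb (-3.17 ± 0.81, adjusted p = 0.0491) and Cox8b (-2.86 ± 0.63, adjusted p = 0.0349) passed. Atp5l was at -4.12 (adjusted p = 0.0520). The dim second probe set of Ndufb6 was at 0.09 (adjusted p = 0.6671). The count rests on single arrays. It was 0 without any 1 of low-fat B6 arrays 13 and 14, high-fat B6 array 7 and the 4 high-fat 129S6 arrays. It was 2 without high-fat B6 array 6, 4 without low-fat B6 array 15, 14 without high-fat B6 array 8, 36 without low-fat 129S6 array 9 and 38 without high-fat B6 array 5.

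In epididymal fat, no member passed for diet in B6 by limma (0.230% of all genes rose and 0.0485% fell), 12 had an unadjusted p under 0.05 (15.2% of all genes) and the median was 0.25, or 0.15 without high-fat array 7. Cox5b was at 0.60 (adjusted p = 0.2447), Ndufb7 at 0.41 (adjusted p = 0.2448) and Atp5l at 0.60 (adjusted p = 0.2787). None passed for diet in 129S6 either (0.448% rose and 0.303% fell), where 8 had an unadjusted p under 0.05 (13.9% of all genes). The median was 0.11, or 0.04 without high-fat array 12 and 0.20 without array 13, and 21 members were higher on high-fat food without overlap, against 14.5% of all genes. Ndufa7 was at 0.49 (adjusted p = 0.2361), Atp5md at 0.82 (adjusted p = 0.2542) and Cox7a1 at 0.65 (adjusted p = 0.2691). Without high-fat B6 array 7, 11 members passed for diet in 129S6. In 129S6 fat the mean of 5 of 7 adipocyte markers was 10.8 to 11.0 on low-fat and 10.2 to 10.6 on high-fat arrays, and that of 2 of 5 red cell markers 10.7 to 11.0 and 9.72 to 10.5, with no overlap in either; their part was not tested.

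Between the strains on low-fat food, 1 member passed in fat, Cyc1, where 0.679% of all genes were lower and 0.400% higher. It read 10.27, 10.44, 10.43 and 10.43 in B6 and 11.24, 11.01 and 11.27 in 129S6, with no overlap (-0.78 ± 0.16, SE; adjusted p = 0.0305). It passed with array SD as a covariate (-0.67, adjusted p = 0.0387), but its second probe set was at 0.15 ± 0.21 (adjusted p = 0.9749). Ndufv2, an iron-sulphur core subunit, read 8.46, 8.67, 8.37 and 8.52 against 9.07, 8.99 and 9.06 (-0.54 ± 0.13, adjusted p = 0.0859), and Sdha 6.25, 6.32, 6.39 and 6.56 against 7.56, 7.27 and 7.28 (-0.99 ± 0.37, adjusted p = 0.3719). Neither passed, although B6 lay below 129S6 on every array. In 40 of the 69 members every B6 array lay below every 129S6 array, against 14.0% of all genes, and 20 had an unadjusted p under 0.05 (9.28% of all genes). The low-fat B6 arrays share a run of array numbers with 129S6 array 9, and 129S6 arrays 10 and 11 lie in another. Strain and run can thus be told apart only in part, and with the runs as a term 0 members passed. On the same arrays the mean of 7 macrophage markers was 8.69 to 9.28 in B6 and 7.75 to 8.23 in 129S6, that of 6 of 7 brown adipocyte markers 4.31 to 4.60 and 4.80 to 5.21, and that of 2 of 5 red cell markers 9.87 to 10.6 and 10.7 to 11.0. The mean of 6 of 7 hepatocyte markers was 5.69 to 6.43 in B6 and 6.59 to 7.75 in 129S6. None of these lists overlapped between the strains, and their part in the subunit differences was not tested.

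The call of Cyc1 was lost without any 1 of the 4 low-fat B6 or 3 low-fat 129S6 arrays, while 8 members passed without high-fat B6 array 7 and 3 without high-fat 129S6 array 13. On high-fat food no member passed between the strains (0.133% of all genes lower, 0.303% higher; 13 members, and 8.59% of all genes, with an unadjusted p under 0.05). Cox8b was at -0.56 (adjusted p = 0.1664), Ndufv2 at -0.44 (adjusted p = 0.2651) and Atp5k at -0.65 (adjusted p = 0.3407). The high-fat fat arrays of each strain lie in a different run of array numbers, so between them strain and run cannot be told apart. Without high-fat B6 array 7, 21 passed, and without high-fat 129S6 array 13, 1. No member, and 0% of all genes, passed for diet by strain, with no unadjusted p under 0.05 among members (2.81% of all genes). Atp5e was at 1.02, Sdhb at 0.78 and Ndufb10 at 0.58 (adjusted p = 0.9999 each).

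Fat arrays differed within groups. The Gapdh 3′ minus 5′ difference was 6.03 on high-fat B6 array 7, 5.81 and 5.93 on high-fat 129S6 arrays 12 and 13, 2.36 on high-fat B6 array 8 and at most 0.41 on the other arrays. The mean of 4 of 5 epididymis markers was 11.2 and 11.5 on low-fat B6 arrays 1 and 3 but 6.27 and 6.25 on the other 2, and 5.86 to 10.7 over the high-fat B6 arrays. It was 8.79, 6.74 and 5.60 on low-fat 129S6 arrays 9, 10 and 11, and 6.05 to 6.29 over the high-fat 129S6 arrays. The part of these in the fat results was not tested.

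Across tissues, complex IV held Cox6a2 and Cox7a1, by far brighter in muscle, and members that did not pass between tissues. The averages below include the 4 high-fat B6 muscle arrays and low-fat 129S6 array 9, and values from the low-fat B6 arrays alone (4 of liver, 3 of muscle, 4 of fat) are given beside several of them. Cox6a2 ranged from 6.49 to 7.27 over the 16 liver arrays, from 6.31 to 6.92 over the 14 fat arrays and from 9.53 to 13.4 over the 15 muscle arrays, with medians of 6.84, 6.72 and 12.6. Muscle did not overlap the other tissues. On average over the 4 groups Cox6a2 was 39.2-fold higher in muscle than in liver (5.29 ± 0.19, SE; adjusted p = 9.96e-25) and 42.7-fold higher than in fat (5.42 ± 0.20); from low-fat B6 arrays alone it was 102-fold (6.67) and 99.6-fold (6.64) higher. Cox7a1 ranged from 3.55 to 4.19 in liver, 3.45 to 4.76 in fat and 5.90 to 9.63 in muscle. It was 24.5-fold higher in muscle than in liver (4.61 ± 0.16, adjusted p = 3.46e-25) and 20.5-fold higher than in fat, or 51.9-fold and 50.3-fold from low-fat B6 arrays alone.

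Cox8b was 7.27-fold higher in muscle than in liver (2.86 ± 0.14, adjusted p = 4.44e-20), with 7.79 to 8.36 in liver, 7.93 to 9.23 in fat and 9.01 to 11.8 in muscle, and 11.2-fold higher from low-fat B6 arrays alone. In the counterparts the order was different. Cox6a1 ranged from 11.0 to 12.0 in liver, 11.0 to 12.4 in fat and 8.09 to 10.4 in muscle, and was 3.34-fold lower in muscle than in liver (-1.74 ± 0.16, adjusted p = 3.73e-12). Cox7a2 did not pass between muscle and liver (0.25, adjusted p = 0.3437), nor did Cox7a2l (-0.15, adjusted p = 0.3732) or Cox8a (0.11, adjusted p = 0.0845), while Cox4i1 (0.85, adjusted p = 3.42e-11) and Cox6b1 (0.66, adjusted p = 7.76e-09) were higher in muscle. Cox6a1, Cox6a2, Cox7a1 and Cox7a2 did not pass between fat and liver. From low-fat B6 arrays alone Cox7a2 was higher in muscle than in liver (0.53, adjusted p = 0.0013), lower in fat than in liver (-0.95, adjusted p = 3.22e-06) and higher in muscle than in fat (1.47), and Cox6a1 was lower in fat than in liver (-0.57, adjusted p = 0.0124).

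**Figure D5:**
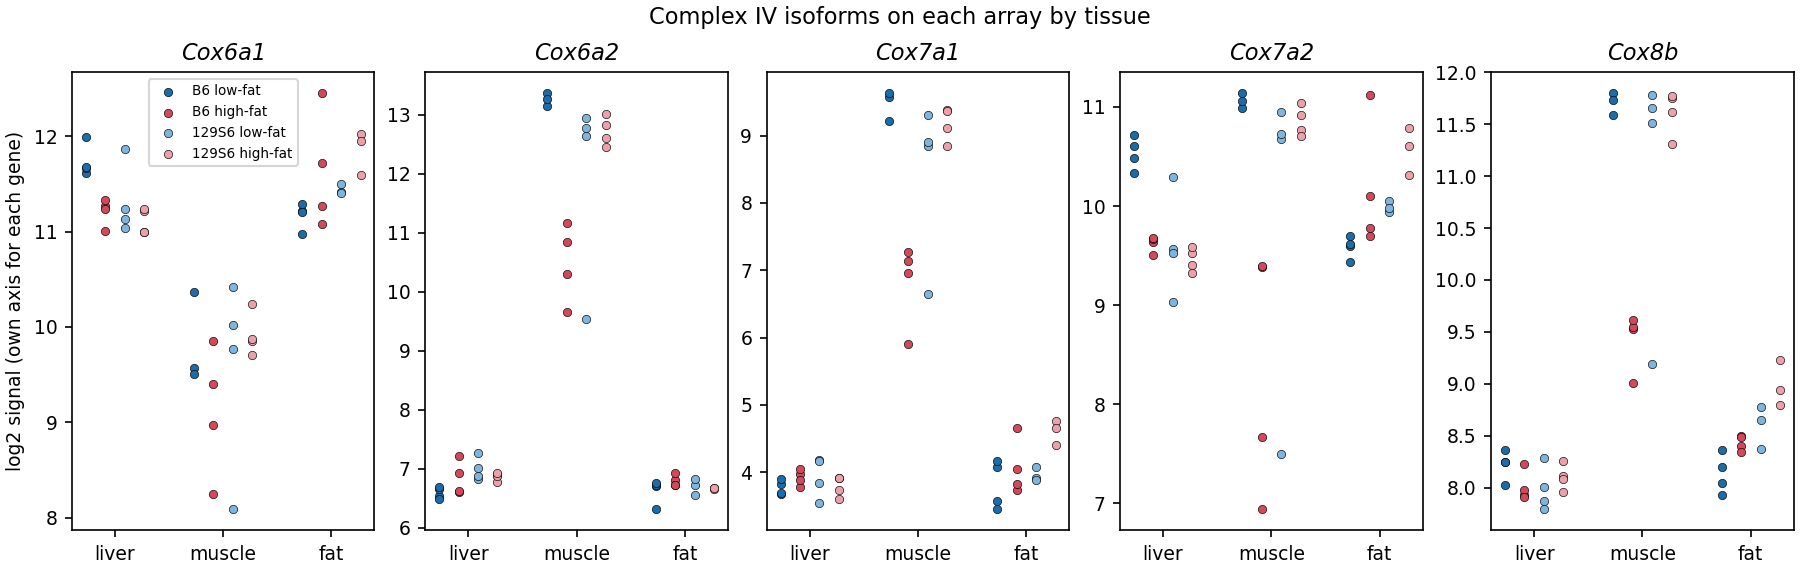
Log2 signal of Cox6a1, Cox6a2, Cox7a1, Cox7a2 and Cox8b on each array, by tissue, with an axis for each gene. Muscle lies above liver and fat for Cox6a2 and Cox7a1 on every array and below both for Cox6a1, and the lowest muscle points of Cox6a2, Cox7a1 and Cox8b are the 4 high-fat B6 arrays and low-fat 129S6 array 9.

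Over all 69 members, 44 were higher and 4 lower in muscle than in liver, with a median of 0.61 (all genes 0.11), where 43.4% of all genes were higher and 24.6% lower. Those lower were Cox6a1, Uqcrq (-0.48), Uqcr11 (-0.42) and Ndufc2 (-0.18). From low-fat B6 arrays alone 52 were higher and 2 lower, Cox6a1 and Uqcr11, while Uqcrq was at 0.03 (adjusted p = 0.8148) and Ndufc2 at -0.19 (adjusted p = 0.0965). Of the members that passed, 4 changed sign there: Uqcrq, Cox6b2 (0.66 and -0.19), Cox5a (0.12 and -0.01) and Atp5j2 (0.32 and -0.03). Uqcrc2 (1.29, adjusted p = 1.02e-09) and Ndufb5 (1.43) were among those higher. None of the 4 complex II genes passed, with Sdha at 0.14, Sdhb at 0.08, Sdhc at -0.14 and Sdhd at -0.27, against 10 higher and 1 lower of 15 in complex IV and 11 higher of 14 in complex V. From low-fat B6 arrays alone Sdha (0.35, adjusted p = 0.0378) and Sdhb (0.46, adjusted p = 0.000977) were higher in muscle.

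Fat was lower than liver in 26 members and higher in 2, Ndufb3 (0.41) and Cox8b (0.46), where 28.7% of all genes were lower and 29.1% higher, with a median of -0.24. From low-fat B6 arrays alone 54 were lower and 2 higher (Cox8c and Atp5g1), the median was -0.90, and neither Ndufb3 (-0.25, adjusted p = 0.0852) nor Cox8b (-0.09, adjusted p = 0.5406) was among those higher. In complex II, Sdha (-1.08 ± 0.24, adjusted p = 0.000252), Sdhb (-0.85, adjusted p = 0.000469) and Sdhd (-0.53, adjusted p = 0.0141) were lower in fat, and Sdhc was at -0.38 (adjusted p = 0.1552); from low-fat B6 arrays alone all 4 passed as lower, at -2.17, -1.53, -1.14 and -1.03 for Sdha to Sdhd. Muscle was higher than fat in 55 members and lower in Cox6a1 (-1.92) and Cox8c (-0.27), against 41.1% and 30.4% of all genes, with a median of 0.78. From low-fat B6 arrays alone the median was 1.65, 61 were higher, and 1 was lower, Cox6a1, while Cox8c was at -0.43 (adjusted p = 0.0641) and Cox5a, higher on average, changed sign. Tissue and the runs of array numbers cannot be told apart.

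Other genes of the organelle, from lists, were read beside the subunits for diet in B6. In B6 liver 12.0% of all genes fell and 6.21% rose, and 6.54% were lower with array SD as a covariate. Of 61 mitochondrial ribosomal proteins, which make the subunits encoded by mitochondrial DNA, 34 fell and 1 rose in B6 liver (median -0.45; Mrps12 -0.81, adjusted p = 7.94e-06), and 15 were lower with array SD as a covariate. In the citric acid cycle 3 of 16 genes fell in liver, Dlst (-0.54), Idh3g (-0.63) and Suclg1 (-0.57). On a list of 8 assembly factors and related genes 3 fell: Ndufab1, the mitochondrial acyl carrier protein (-0.84), Ndufaf1 (-0.61) and Lrpprc (-0.54). Of 14 carriers and exchangers Coq7, of ubiquinone synthesis (-0.77), Etfb, of the electron transfer flavoprotein (-0.69), and Vdac3 (-0.56) fell, and Slc25a5, an ADP/ATP carrier, rose (0.74). Of 13 regulators 1 passed, the corepressor gene Nrip1, which rose (0.93, adjusted p = 0.000391). For the difference between strains in the diet effect in liver, 19 of the 61 ribosomal proteins passed with a more negative value in B6. So did Coq7 (-1.06), Etfb (-0.70) and Dlst (-0.67), and Nrip1 passed with a more positive one (0.92). Of all genes, 4.63% and 0.861% passed in these directions.

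In liver between the strains on low-fat food, 28 of 61 ribosomal protein genes and 6 of 16 citric acid cycle genes were higher in B6. Cs, citrate synthase, was among them (0.81, adjusted p = 2.41e-05). Coq7 (1.50, adjusted p = 3.48e-08) and Coq9 (0.59) were higher too. Of all genes 10.0% were higher and 3.83% lower. Nrip1 was lower (-0.52). On high-fat food Coq7 (0.44) and Cs (0.59) were higher in B6 and Etfb (-0.41) lower, against 3.03% and 2.13% of all genes. No gene of the 5 lists passed for diet in 129S6 liver or muscle, where 0.230% and 0% of all genes passed.

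In B6 muscle, 37 of the 61 ribosomal protein genes fell on high-fat food and none rose, 2 being lower with array SD as a covariate. Of all genes, 12.0% fell and 14.8% rose, and 0.376% were lower with the covariate. In the citric acid cycle 6 of 16 fell, among them Cs (-1.91) and Idh3g (-2.91), and Idh3b rose (0.41). Of the assembly factors and related genes 4 fell, Cox16 (-1.45), Ndufab1 (-1.37), Surf1 (-0.73) and Ndufaf4 (-0.67). Of the carriers Etfb (-2.55), Coq7 (-1.84) and Coq9 (-1.78) fell, and Slc25a5 (0.76) and Vdac2 (0.65) rose. Etfb also passed with array SD as a covariate (-1.44, adjusted p = 0.0022). Of the regulators Esrra, an estrogen-related receptor, fell (-1.16), and Gabpb1 (0.66), Tfam (0.48) and Polg (0.30) rose. In fat, Idh3g was lower in B6 on low-fat food (-1.06, adjusted p = 0.0466) and Ucp1, the uncoupling protein of brown fat, was lower in B6 on high-fat food (-2.56, adjusted p = 0.0029).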

How the data were processed

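Values were log2 signals made by the authors with RMA (per the submitters' processing notes; version and settings not given in the sources used here) from biotin-labelled cRNA on 1-colour arrays, 25 µg of pooled total RNA each. Their number limits the precision. Of 12488 probe sets, 10833 had 1 gene symbol, 396 several, 1193 none and 66 were controls; 35 of the members' 95 carry a suffix for probes that can match more than 1 transcript or were chosen by relaxed rules. Each tissue was fitted as 4 groups with limma 3.58.1 (R 4.3.3; lmFit, eBayes, Benjamini-Hochberg), with contrasts for diet, strain and diet by strain, 15 in all. All arrays were fitted together for 3 tissue contrasts, using 1 probe set per gene. Summaries and plots used Python 3.11.15, pandas 2.3.3, numpy 2.4.6 and matplotlib 3.10.9. The fit was tested on simulated data.

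Named genes were the complex II genes, Cyc1, the Cox4, Cox6, Cox7a and Cox8 isoforms, per comparison and complex the 3 largest differences past the threshold without overlap, members called against the majority, and other probe sets that did not pass alike. Where none passed, the smallest p values were named. The symbol rule uses no measured value, but the set of genes and the lists were chosen with earlier results of these data known. Alternatives were quantile normalization, array SD, Gapdh 3′ minus 5′ or array series as terms, another prior, fewer groups or probe sets and each array left out. Array series were read from runs of array numbers in the labels.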

Additional observations from a re-analysis of the deposited data

Results flagged for a closer look

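An array was set apart where its gap to the nearest other array of its group, divided by the group's range, exceeded Dixon's 95% critical value. This held for 19 of 129 groups of 4 arrays or more tested, where chance gives about 1 in 20, and the tests are not independent, since 12 of the 19 come from 1 array.

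Low-fat 129S6 muscle array 9 gave those 12. Its complex means, relative to the tissue mean, were -1.20 for complex I (the other 3 arrays 0.49 to 0.62), -1.87 for II (0.70 to 0.82), -1.39 for III (0.55 to 0.74), -0.95 for IV (0.20 to 0.27) and -1.27 for V (0.37 to 0.49). Its signals were 8.27 for Ndufb6 (10.90 to 11.25), 8.48 for Sdhb (11.19 to 11.49), 7.64 for Uqcrc1 (11.28 to 11.59), 9.53 for Cox6a2 (12.65 to 12.94), 9.19 for Cox8b (11.51 to 11.78), 4.72 for Cox5a (4.92 to 4.96) and 7.79 for Atp5l (11.75 to 12.11). High-fat B6 muscle array 7 was set apart for Cox8b, at 9.01 (9.53 to 9.61).

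In liver, low-fat 129S6 array 11 was set apart for complex IV, at 0.18 (-0.09 to -0.06). For Cox8a, high-fat B6 array 15 was at 3.41 (3.22 to 3.24) and high-fat 129S6 array 7 at 3.79 (3.60 to 3.62). In fat, low-fat B6 array 1 was at -0.42 for complex II (-0.24 to -0.21) and at 10.27 for Cyc1 (10.43 to 10.44), and low-fat B6 array 4 was at -0.39 for complex V (-0.21 to -0.20).

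The effect of diet differed between the strains, by the test of that difference, in 25 members in liver and 22 in muscle. Of the genes given array by array, these were in liver Ndufb11 (-0.99), Ndufb8 (-1.12), Sdhb (-0.94), Sdhc (-0.94), Uqcr11 (-1.01), Uqcrc1 (-0.84) and Atp5l (-0.84), and in muscle Ndufb6 (-4.19), Sdhb (-3.17), Uqcrc1 (-4.08), Cox6a2 (-3.53), Cox7a1 (-3.40) and Cox8b (-2.86). Negative values are a more negative difference in B6, and none of the muscle calls passed with array SD as a covariate.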

How the results depend on the processing

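No paired analysis was possible because array numbers run on across groups and pair no samples. Counts of members that passed moved by over 1.5 times as follows, and the cause was not tested. With array SD as a covariate, liver diet in B6 went from 45 to 19, strain on low-fat food from 39 to 8 and on high-fat food from 3 to 10; muscle diet in B6 went from 46 to 3, strain on high-fat food from 45 to 6, strain on low-fat food from 0 to 2 and diet by strain from 22 to 0. Quantile normalization gave 26 for liver diet in B6, 17 for strain on low-fat food and 13 for diet by strain (25 otherwise). No muscle count moved by over 1.5 times with it. With the Gapdh difference as a covariate, liver strain on high-fat food gave 8, muscle strain on low-fat food 1, muscle diet by strain 43 and fat strain on low-fat food 6 (1 otherwise). With array series as a term, liver strain on high-fat food and fat strain on low-fat food gave 0. Liver diet in B6, strain on low-fat food and diet by strain could not be fitted with this term. The low-fat B6 liver arrays form a series of their own, so these results were not checked against it. Fits of only the groups compared gave 20 for liver strain on low-fat food, 7 on high-fat food, 25 for fat strain on low-fat food and 1 for fat diet in 129S6. Counting every probe set gave 5 for liver strain on high-fat food, and a trended, robust prior 0 for fat strain on low-fat food. Tissue contrasts from low-fat B6 arrays alone gave 56 for fat against liver (28 otherwise).

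Chosen after seeing the data, leaving out arrays with a Gapdh difference above 3 gave 9 for liver strain on high-fat food, 42 for liver and 0 for muscle diet by strain, and 25 and 3 for fat strain on low-fat and high-fat food. Without high-fat B6 muscle arrays 6 and 7, diet in B6 gave 11, strain on high-fat food 15 and diet by strain 0; without low-fat 129S6 array 9 as well, diet by strain gave 39 and strain on low-fat food 2. Epididymis markers as a covariate gave 0 for fat strain on low-fat food.

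Leaving out each array in turn gave 23 to 50 for liver strain on low-fat food, 1 to 9 on high-fat food and 18 to 42 for diet by strain; 14 to 54 for muscle diet in B6, 0 to 1 for strain on low-fat food and 0 to 38 for diet by strain; and in fat 0 to 11 for diet in 129S6, 0 to 8 for strain on low-fat and 0 to 21 on high-fat food. Liver diet in B6 stayed at 36 to 52 and muscle strain on high-fat food at 30 to 55.

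Among differences of named genes that passed, the sign reversed in 9: Sdhd with array SD as a covariate in muscle (0.0088 for diet in B6, 0.13 for strain on high-fat food), and, from low-fat B6 arrays alone, Cox6b2 (-0.19), Uqcrq (0.0287), Atp5j2 (-0.0311) and Cox5a (-0.0113) in muscle minus liver, Cox5a (-0.0778) in muscle minus fat, and Cox8b (-0.0901) and Ndufb3 (-0.25) in fat minus liver. Dim probe sets, such as those of Cox8a and Cox5a, limit what can be read from small differences.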
